A study of Mus musculus with 11 samples.

Results

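The delta protocadherins are a family of cadherin-related adhesion receptors whose genes stand alone in the genome, outside the protocadherin gene clusters. The 10 genes described here are Pcdh1, Pcdh7, Pcdh8, Pcdh9, Pcdh10, Pcdh11x, Pcdh17, Pcdh18, Pcdh19 and Pcdh20, chosen by their symbols among the 24421 genes counted in every library. They were measured in J-RGCs, retinal ganglion cells of a type that responds to the direction of motion, from control mice (labelled WT) and from mice labelled Tbr1 KO. Tbr1 encodes a T-box transcription factor, and the comparison asks which transcripts of this cell type differ when it is mutated. The mice of both groups were at postnatal day 4 to 5, on a mixed C57BL/6 and CD1 background, and carried a transgene that marks J-RGCs with green fluorescent protein. Cells were sorted by this fluorescence into pools of 100, and each of 11 pools gave 1 single-end RNA sequencing library.

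There were 4 animals per genotype, named a to d here in the order of their library numbers. Control b gave libraries 2 and 3 of the 5 control libraries. Mutant a gave libraries 1 and 2, and mutant b libraries 3 and 4, of the 6 mutant libraries. Every other animal gave 1 library. Neither the removed part of Tbr1, nor whether the deletion was limited to some cells, nor whether controls carried any mutant allele, is stated in the labels. In pools of sorted cells, fewer cells that express a gene and less RNA per cell cannot be told apart.

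Protocadherins of this family carry extracellular cadherin repeats that bind, mostly to the same protein, on a facing cell, and a cytoplasmic tail that signals to the actin cytoskeleton. By their tails they are divided into delta-1 (Pcdh1, Pcdh7, Pcdh9 and Pcdh11x) and delta-2 members (Pcdh8, Pcdh10, Pcdh17, Pcdh18 and Pcdh19), with Pcdh20 as a more distant relative. In developing neurons they are known for roles in axon growth, fasciculation and the sorting of cells and synapses, and PCDH19 is known as a gene of an X-linked epilepsy. In the retina, members of the family are known to be expressed in patterns that differ between cell types.

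Among the delta-2 members, Pcdh19 fell in the mutants, Pcdh18 had the next lowest unadjusted p without passing the test, and Pcdh10 was strongly expressed and differed little. The sequences that lie upstream of their transcription start are shown to let the 3 be compared. They are the 250 bases before the start annotated by RefSeq (GRCm38.p6), read 5′ to 3′ on the strand of the gene. They lie at chrX:133688994-133689243 for Pcdh19 (minus strand), chr3:49757317-49757566 for Pcdh18 (minus strand) and chr3:45378148-45378397 for Pcdh10 (plus strand). Capitals mark the CCAAT box (CCAAT, or ATTGG on the other strand) and the core of the T-box motif (GTGTGA, or TCACAC on the other strand).
Pcdh19: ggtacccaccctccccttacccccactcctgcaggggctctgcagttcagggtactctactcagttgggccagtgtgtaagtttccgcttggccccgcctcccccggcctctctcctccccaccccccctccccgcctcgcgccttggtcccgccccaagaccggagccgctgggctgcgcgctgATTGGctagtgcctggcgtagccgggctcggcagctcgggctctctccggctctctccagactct
Pcdh18: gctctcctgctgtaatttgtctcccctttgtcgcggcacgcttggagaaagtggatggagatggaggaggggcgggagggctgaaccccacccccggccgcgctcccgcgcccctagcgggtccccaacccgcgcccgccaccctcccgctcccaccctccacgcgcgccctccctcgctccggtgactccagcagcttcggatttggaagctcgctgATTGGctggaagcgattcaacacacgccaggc
Pcdh10: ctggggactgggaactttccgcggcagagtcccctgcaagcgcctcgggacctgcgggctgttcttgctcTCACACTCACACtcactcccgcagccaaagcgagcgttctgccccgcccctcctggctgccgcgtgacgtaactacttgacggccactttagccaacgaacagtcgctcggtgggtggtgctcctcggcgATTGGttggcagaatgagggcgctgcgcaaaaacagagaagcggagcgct
The T-box core was absent from the windows of Pcdh19 and Pcdh18 and occurred 2 times in that of Pcdh10. The longer T-box half-site AGGTGTGA (TCACACCT), which contains the core, was in none of the 8 members with a RefSeq window. Over the 32851 RefSeq windows of the same length, 12.3% held the core on either strand and 1.12% the half-site. A CCAAT box was present 61 bases before the start of Pcdh19, 28 before that of Pcdh18 and 46 before that of Pcdh10, in each case as ATTGG. It was also found in the windows of Pcdh8, Pcdh9, Pcdh17 and Pcdh20 but not of Pcdh7, where 33.8% of all windows held it. A window of 250 bases says nothing of binding sites farther away.

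Reads counted over genes numbered 8609845 to 34718693 per library, and 13897 to 15440 genes were detected. Counts were summed per animal, since pools of 1 animal are not independent, and levels are in CPM, each gene's count relative to the TMM-scaled total of its library. Tbr1 was still counted in the mutants, at 133, 145, 94.2 and 106 CPM in mutants a to d against 193, 155, 166 and 165 in controls a to d, so all mutants lay below all controls. Its log2 fold change was -0.50 ± 0.15 (SE; edgeR Benjamini-Hochberg adjusted p = 0.369), and counts over the whole gene take in any exons that remain. Jam2, the adhesion molecule that defines J-RGCs, fell from 528 ± 85.6 to 107 ± 21.5 CPM (SD, n = 4 each). The 12 pan-ganglion cell markers summed to 12393 to 15070 CPM in controls and 13869 to 15275 in mutants, a sum to which Nefl gave the most (5030 CPM in controls, 6121 in mutants). None of the 12 passed over all genes in the edgeR test. At an unadjusted p under 0.05 in that test, 4 were lower (Pou4f2, Thy1, Pou4f1 and Isl1) and 3 higher (Nrn1, Nefm and Nefl). Of all tested genes, 3.7% were lower and 3.4% higher at that threshold. Pou4f2, a transcription factor of ganglion cells, averaged 282 ± 12.8 CPM over controls and 163 ± 37.7 over mutants (SD, n = 4 each), without overlap. Its part in the results below was not tested.

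Pcdh19 was the delta protocadherin that changed. Its level was 75.9, 72.7, 61.9 and 70.3 CPM in controls a to d, and 20.2, 24.9, 14.8 and 17.7 CPM in mutants a to d. Controls lay close together, and the highest mutant was well below the lowest control. The mean went from 70.2 ± 6.01 to 19.4 ± 4.28 CPM (SD, n = 4 each), 3.61-fold lower, with a log2 fold change of -1.85 ± 0.20 (SE; 95% interval -2.29 to -1.41). In edgeR's quasi-likelihood test, adjusted by Benjamini-Hochberg over 13957 tested genes, the adjusted p was 0.00137, and the unadjusted p ranked Pcdh19 at place 8. An exact two-sided permutation test over animals gave p = 0.0286, and no smaller p is possible with 4 animals per genotype.

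All 10 delta protocadherins passed the filter on low counts. Of these 10, 1 passed the adjusted threshold of 0.05, where 0.287% of all tested genes did. Lower in the mutants were 1 of 10 against 0.201% of all genes, and no member was higher, against 0.086% of all genes. At an unadjusted p under 0.05 there were 2 members, Pcdh19 and Pcdh18, both lower, where 7.09% of all genes passed and 3.7% were lower. The animals of the genotypes did not overlap for 1 member, Pcdh19, against 5.06% of all genes, or 2.48% that were lower without overlap. The log2 fold change was below 0 in 4 members and in 50.1% of all genes. The median log2 fold change of the 10 members was 0.08, beside -0.00071 for all tested genes. The members were chosen with earlier results of these data known, so these shares are no test of the family.

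**Figure D1:**
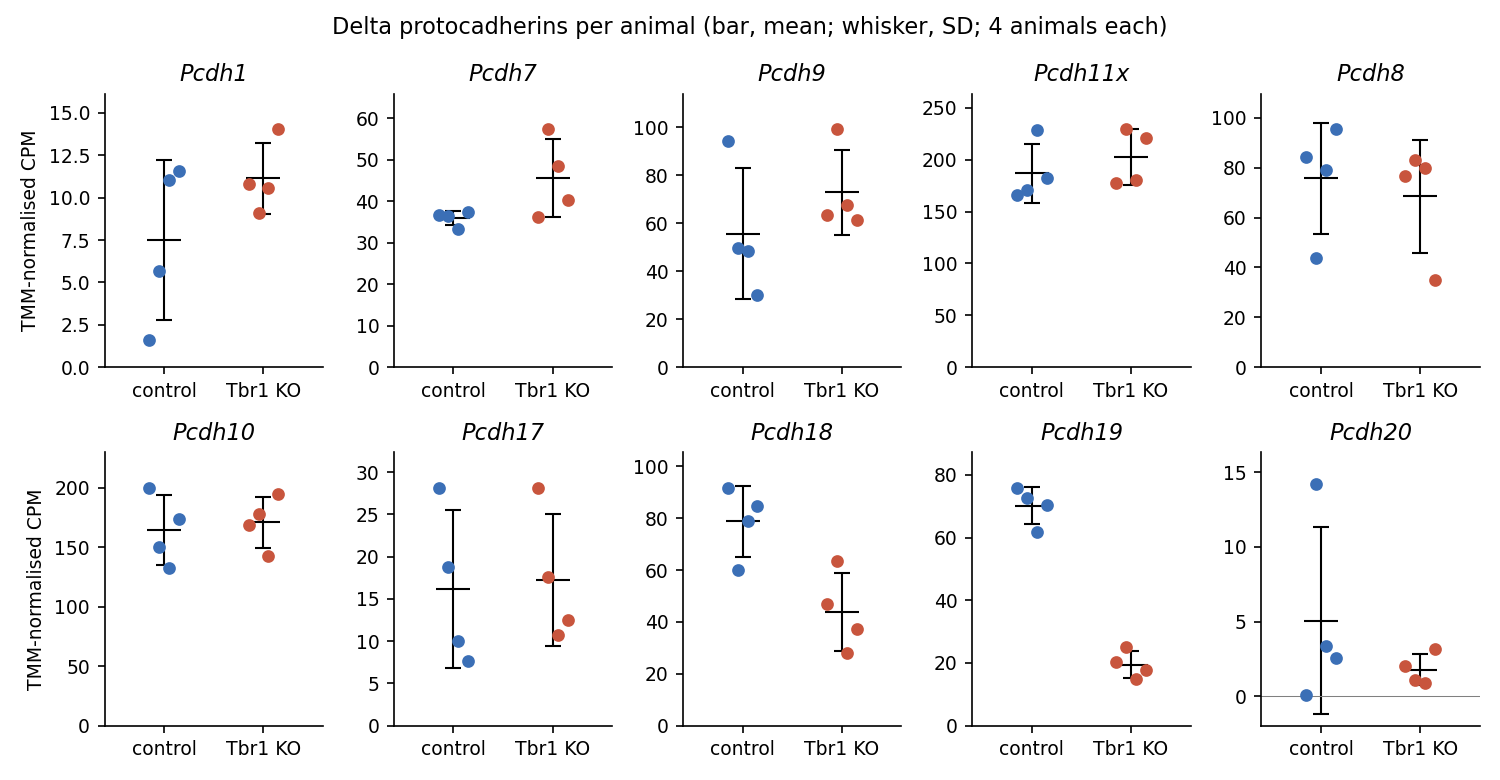
TMM-normalised CPM (y axis) of each delta protocadherin in 4 control (blue) and 4 Tbr1 KO animals (red), with the mean and SD in black. In the Pcdh19 panel controls sit at 61.9 to 75.9 CPM and mutants at 14.8 to 24.9, while the genotypes overlap in the 9 other panels.

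The separate pools gave the same picture for Pcdh19. It was at 71.9 and 74.6 CPM in the pools of control b, 20.8 and 19.2 in those of mutant a, and 21.0 and 31.8 in those of mutant b. Over all pools, controls ranged from 61.7 to 75.6 CPM (median 71.9, 5 pools) and mutants from 14.8 to 31.8 CPM (median 20.0, 6 pools), with no overlap. Pools of 1 animal differed by 1.04-fold to 1.52-fold, less than the difference between the genotypes. Behind these values stand 9058 Pcdh19 reads over the controls and 3362 over the mutants. The reads carried no molecular identifiers, so they are not independent molecules.

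Pcdh19 lies on the X chromosome (GRCm38 chromosome X, 133582860 to 133688987, minus strand, gene ENSMUSG00000051323), so its level is given beside Xist, the RNA of the inactive X. Xist was at 277 to 348 CPM in controls a, b and d and at 214 and 302 CPM in mutants a and d. It was at 3.14 CPM in control c and at 7.37 and 0 CPM in mutants b and c, the 3 animals in which Ddx3y, Eif2s3y, Kdm5d and Uty of the Y chromosome summed to 121 to 128 CPM. Both kinds of animal were present in both genotypes. Among animals with high Xist, Pcdh19 averaged 73.0 CPM in 3 controls and 18.9 in 2 mutants, a 3.85-fold difference. Among those with low Xist, it was 61.9 CPM in the 1 control and averaged 19.9 in 2 mutants, a 3.11-fold difference. With Xist as a covariate the log2 fold change of Pcdh19 was -1.77 ± 0.22 (SE; edgeR Benjamini-Hochberg adjusted p = 0.00554). Of 461 tested X-linked genes, 1 passed the threshold (Pcdh19), a share of 0.217% beside the 0.287% of all tested genes.

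Pcdh18, the delta-2 member whose tail is known to bind the adaptor Dab1, was lower in most mutants without passing the test over all genes. It was at 91.7, 59.9, 78.9 and 84.7 CPM in controls a to d and at 46.8, 63.3, 27.9 and 37.1 CPM in mutants a to d. Mutant b exceeded control b, and the 3 other mutants lay below every control. Controls averaged 78.8 ± 13.7 CPM and mutants 43.8 ± 15.2 CPM (SD, n = 4 each), a log2 fold change of -0.85 ± 0.24 (SE; 95% interval -1.37 to -0.32). The edgeR quasi-likelihood test gave an unadjusted p of 0.00434 and a Benjamini-Hochberg adjusted p of 0.326, and the exact two-sided permutation test over animals gave p = 0.0571. Pools of 1 animal spread widely, with 44.1 and 115 CPM in the pools of control b, a 2.60-fold difference, and 39.4 and 60.9 CPM in those of mutant a. These pools of control b had 31033784 and 8609845 reads over genes, so its summed level lies nearer the deeper, lower pool. The pools of mutant b, at 66.8 and 58.2 CPM, lay between them, so the overlap of the 2 animals depends on that weighting. Pcdh18 (chromosome 3, 49743296 to 49757325, minus strand) overlapped no other annotated gene.

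The difference between genotypes was larger for Pcdh19 than for Pcdh18. The ratio of their levels per kb of exon was 0.424, 0.623, 0.402 and 0.426 in controls a to d and 0.221, 0.202, 0.273 and 0.244 in mutants a to d, with no overlap. The log2 ratio was -1.12 in controls and -2.10 in mutants, a difference of -0.98 (exact two-sided permutation p = 0.0286, n = 4 each). This pair was picked after the values were seen. Over the 8 animals the log2 CPM of Pcdh18 and Pcdh19 had a Pearson r of 0.88, and r was 0.83 after the mean of each genotype was taken off. For the other members, r with Pcdh19 after that step ran from -0.37 (Pcdh1) to 0.55 (Pcdh17). Both genes come from the same pools, and the cause of their r was not tested. In the plot of pools, the pools of control b differ in Pcdh18 and hardly in Pcdh19. The pools of mutant a had 39.4 and 60.9 CPM of Pcdh18 and 20.8 and 19.2 of Pcdh19. Those of mutant b had 66.8 and 58.2 CPM of Pcdh18 and 21.0 and 31.8 of Pcdh19. In both of these mutants the genes moved in opposite directions between pools.

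**Figure D2:**
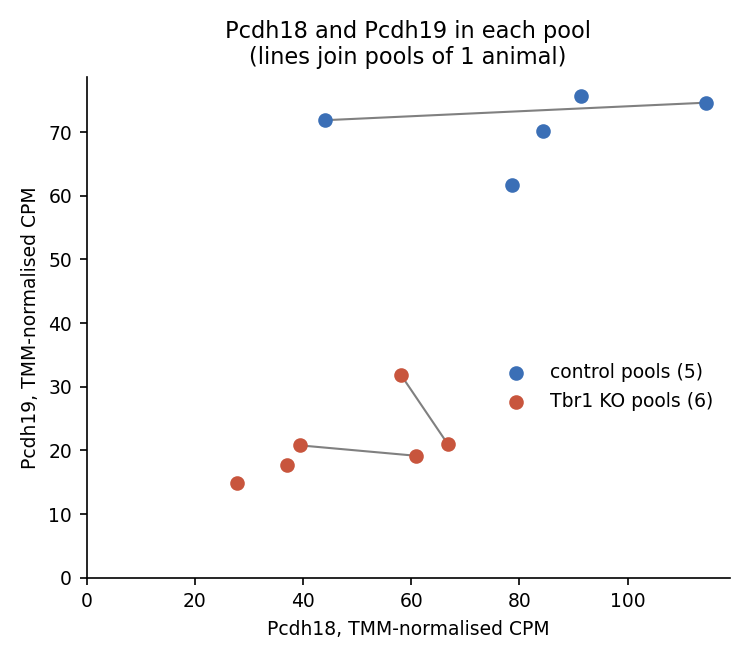
TMM-normalised CPM of Pcdh18 (x axis) and Pcdh19 (y axis) in 5 control pools (blue) and 6 Tbr1 KO pools (red), with lines joining pools of 1 animal. The genotypes separate along the Pcdh19 axis, at 61.7 to 75.6 against 14.8 to 31.8 CPM, and overlap along the Pcdh18 axis.

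Of the other delta-2 members, Pcdh10 was the most abundant in CPM and differed little. Pcdh10, known for guiding axons and for recruiting the WAVE complex to the membrane, was at 200, 150, 133 and 174 CPM in controls a to d and at 169, 178, 143 and 195 CPM in mutants a to d. The genotypes overlapped over most of their range. Its log2 fold change was 0.06 ± 0.15 (SE), and the 95% interval of -0.27 to 0.38 leaves out a change of the size seen in Pcdh19.

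Pcdh8, an activity-regulated protocadherin known to associate with N-cadherin, was at 84.4, 43.7, 79.3 and 95.5 CPM in controls a to d and at 76.5, 83.1, 79.9 and 34.9 CPM in mutants a to d. Control b and mutant d were low, and the other animals of both genotypes lay together. Its log2 fold change was -0.14 ± 0.29 (SE; 95% interval -0.76 to 0.48). Pcdh17, known in presynaptic assembly and collective axon extension, was at 28.1, 18.8, 10.02 and 7.599 CPM in controls a to d and at 28.1, 17.6, 10.7 and 12.5 CPM in mutants a to d. The genotypes covered the same range, and the log2 fold change of 0.10 ± 0.44 (SE) had a 95% interval of -0.86 to 1.05. Its pools were also uneven, with 13.0 and 39.0 CPM in those of control b.

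The 4 delta-1 members all had positive log2 fold changes, and none passed the test. Pcdh11x, the X-linked member with the highest CPM, was at 166, 171, 229 and 182 CPM in controls a to d and at 178, 229, 180 and 221 CPM in mutants a to d. Controls and mutants overlapped, and the log2 fold change was 0.11 ± 0.14 (SE; 95% interval -0.19 to 0.42). Pcdh7, a delta-1 member whose tail is known to bind protein phosphatase 1, was at 36.7, 36.4, 33.4 and 37.4 CPM in controls a to d and at 36.3, 57.4, 48.6 and 40.3 CPM in mutants a to d. Controls were tight, and 3 of 4 mutants lay above all of them. Its log2 fold change was 0.34 ± 0.19 (SE), with an unadjusted p of 0.101 and a Benjamini-Hochberg adjusted p of 0.808 in the edgeR test.

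Pcdh9, a long gene of 877 kb that is widely expressed in the nervous system, was at 94.4, 49.9, 48.4 and 29.9 CPM in controls a to d and at 63.6, 99.2, 67.5 and 61.4 CPM in mutants a to d. Control a was high, and the 3 other controls lay below every mutant. The log2 fold change was 0.39 ± 0.30 (SE; 95% interval -0.26 to 1.04). It was 0.78 without control a, 0.19 without control d and 0.21 without mutant b, and did not pass over all genes in any of these fits. Pcdh1, at 1.61, 5.70, 11.1 and 11.6 CPM in controls a to d and 9.12 to 14.04 CPM in mutants, had a log2 fold change of 0.57 ± 0.52 (SE). Control a, the low sample, had 40 Pcdh1 reads.

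Pcdh20, the distant relative, was near the lower end of what these pools show. Its level was 0.0807, 14.2, 3.40 and 2.57 CPM in controls a to d and 2.00, 1.08, 0.889 and 3.13 CPM in mutants a to d. Control a held 2 reads, and control b 507 in one pool and 42 in the other. The log2 fold change of -1.51 ± 1.09 (SE; 95% interval -3.87 to 0.85) rested on control b, and it was -0.19 without that animal. Pools of 1 animal differed by up to 5.15-fold.

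**Figure D3:**
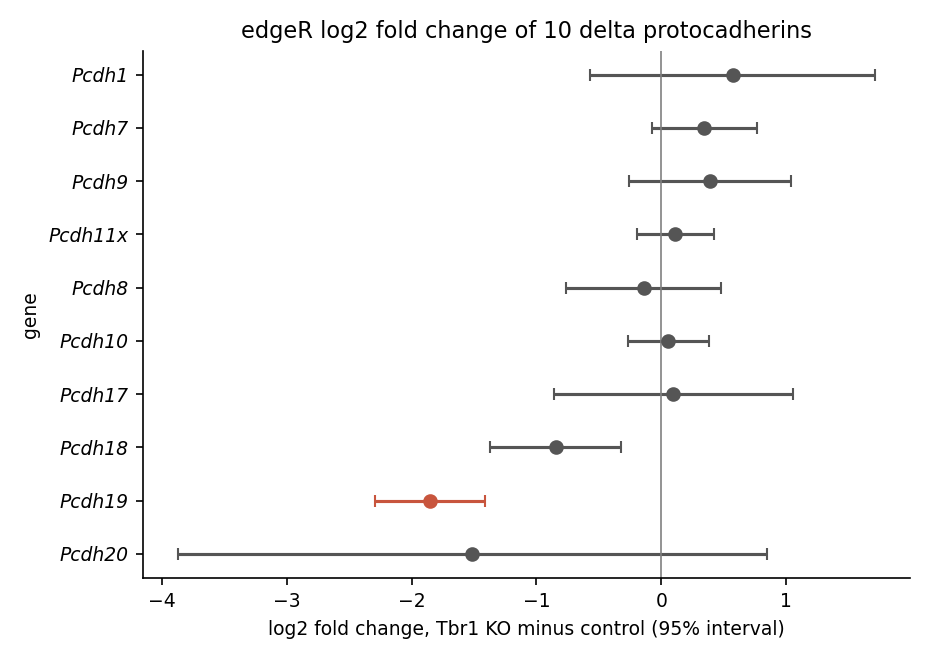
Log2 fold change, Tbr1 KO minus control, from the edgeR fit (x axis) for each of the 10 delta protocadherins (y axis), with 95% intervals. Red marks the member past an adjusted p of 0.05, Pcdh19 at -1.85, and the other intervals cross 0 except that of Pcdh18, which runs from -1.37 to -0.32.

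To compare members with each other, levels were divided by the length of all exons of the gene. In controls Pcdh8 (16.7 ± 4.93 CPM per kb), Pcdh18 (14.7 ± 2.55), Pcdh11x (13.4 ± 2.05), Pcdh10 (10.3 ± 1.84), Pcdh9 (8.21 ± 4.04) and Pcdh19 (6.71 ± 0.574) formed an upper group (SD, n = 4). Pcdh19 overlapped Pcdh9 and lay below the other members of that group in every control. Pcdh7 (3.39 ± 0.168) lay below Pcdh19 in all controls, and Pcdh17 (1.24 ± 0.719), Pcdh20 (0.923 ± 1.14) and Pcdh1 (0.851 ± 0.537) overlapped one another below Pcdh7. Among 13426 annotated tested genes, the control level per kb of Pcdh19 was at percentile 59.0.

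In the mutants Pcdh19 left the upper group. At 1.86 ± 0.409 CPM per kb (SD, n = 4) it lay below Pcdh7 (4.30 ± 0.883) in every animal and overlapped Pcdh17 (1.33 ± 0.603) and Pcdh1 (1.27 ± 0.236). Its level per kb was at percentile 31.3. Pcdh18 went from place 2 to place 5, at 8.16 ± 2.83 CPM per kb, and overlapped Pcdh10 (10.8 ± 1.37) and Pcdh9 (10.8 ± 2.61). The upper places depend on the length used: by the longest transcript, Pcdh11x (20.5 ± 3.14 CPM per kb) and Pcdh10 (20.0 ± 3.55) stood above Pcdh8 (16.7 ± 4.94) in controls, while Pcdh18 was at place 4 and Pcdh19 at place 6. By that length Pcdh18 was at place 5 and Pcdh19 at place 8 in the mutants.

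As a share of the summed CPM per kb of the 10 members, Pcdh19 made up 8.32%, 10.7%, 7.80% and 8.63% in controls a to d and 2.86%, 2.88%, 2.26% and 2.80% in mutants a to d. The mutants were close together and far below the controls. Pcdh18 made up 17.2% to 20.3% in controls and 8.26% to 14.3% in mutants, without overlap. The 4 delta-1 members together made up 28.7% to 36.9% in controls and 39.7% to 50.2% in mutants. Shares add to the whole, so a lower share of some members raises the others. The summed level of all 10 was 76.4 ± 9.13 CPM per kb in controls and 68.4 ± 10.04 in mutants, and without Pcdh19 it was 69.7 ± 9.01 and 66.5 ± 9.66 (SD, n = 4 each).

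**Figure D4:**
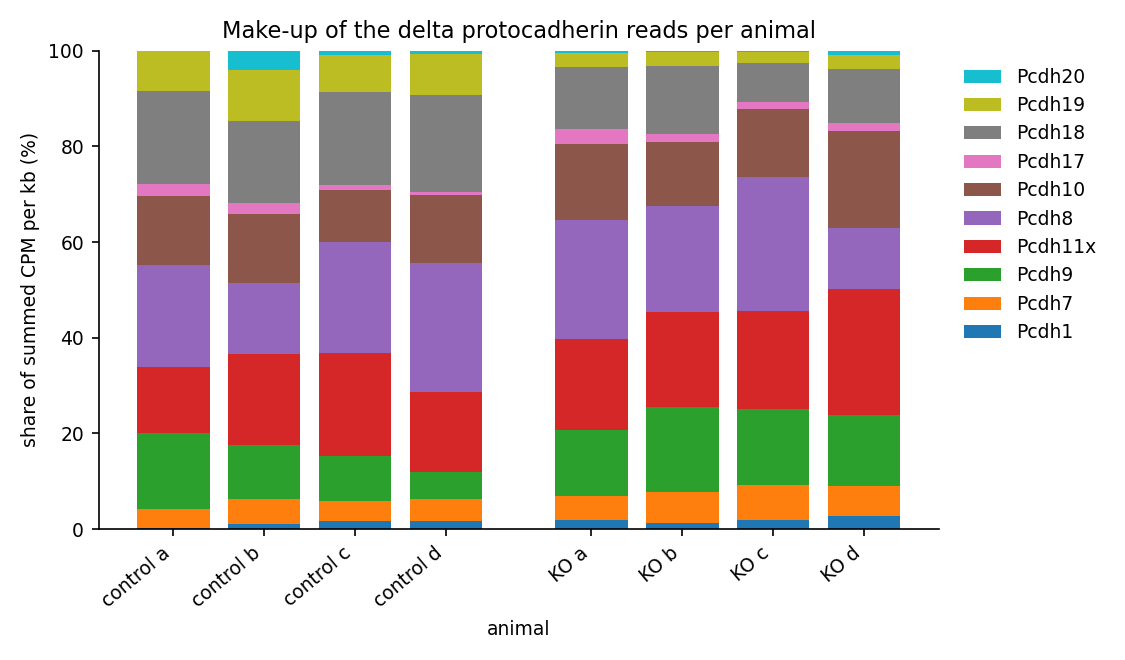
Share of the summed CPM per kb of the 10 delta protocadherins (y axis, %) taken by each gene (colours) in each of 4 control and 4 Tbr1 KO animals (x axis). The band of Pcdh19 is 7.80% to 10.7% in controls and 2.26% to 2.88% in mutants.

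The members differ enough in sequence that reads of 1 are unlikely to be counted for another. No stretch of 40 bases in the transcripts of a member occurred in those of another member. For Pcdh19, 0.199% of such stretches occurred in another gene, Pcdh19 sharing 57 exon bases with Gm26851 on the opposite strand. For Pcdh7 the share was 20.6%, and it overlaps 4932441J04Rik on the opposite strand, which had 51 reads over all animals. For Pcdh8 it was 8.57%, with the overlapping Gm9748. Strand is not marked by Smart-seq2, and reads from such pairs cannot be told apart.

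The genes most like Pcdh19 over the 8 animals, by Pearson r of log2 CPM among 7755 other named genes with a mean of at least 16 CPM, were Sorcs3 (r = 0.99), Tmeff2 (0.97), Cap1 (0.97), Tmem151b (0.96) and Rhbdd3 (0.95). All 5 were lower in every mutant than in every control, so the difference between genotypes sets most of each r. After the mean of each genotype was taken off, r was 0.81 for Sorcs3, 0.57 for Tmeff2, 0.15 for Cap1, 0.43 for Tmem151b and 0.49 for Rhbdd3. Sorcs3, a sorting receptor, Tmeff2, a transmembrane protein, Cap1, an actin-binding protein, and Tmem151b passed the adjusted threshold. Rhbdd3 averaged 71.9 ± 3.41 CPM over controls and 57.7 ± 2.74 over mutants (SD, n = 4 each) and did not (edgeR Benjamini-Hochberg adjusted p = 0.678).

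Related cadherins outside the family gave no call. Of 15 other solitary protocadherins and large atypical cadherins counted, 12 were tested, 0 passed over all genes in the edgeR test, and their median log2 fold change was 0.09. Fat3, a giant cadherin known in retinal amacrine dendrites, averaged 80.1 ± 25.3 CPM over controls and 106 ± 10.1 over mutants (SD, n = 4 each), with control a at 42.9. Fat1 had a log2 fold change of 0.54 ± 0.36 and Pcdh15, the hair cell tip-link protocadherin, one of 0.97 ± 0.61 (SE). At an unadjusted p under 0.05 there was 1 of the 12, beside 7.09% of all tested genes. It was Cdhr1, a cadherin of photoreceptor outer segments, named here after its value was seen. It averaged 8.70 ± 3.95 CPM over controls and 20.7 ± 11.5 over mutants (SD, n = 4 each). The 12 photoreceptor markers summed to 30.7 to 264 CPM in controls and 29.3 to 1032 CPM in mutants. All 11 tested ones had a log2 fold change above 0, and 0 passed over all genes. Of all tested genes, 50.1% had one below 0. The part of photoreceptor markers in the difference of Cdhr1 was not tested.

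The genes through which delta protocadherins are known to act were measured as well. Of the 11 tested genes of the WAVE complex, which activates the actin-nucleating Arp2/3 complex and is recruited by delta-2 tails, 0 passed over all genes and 0 had an unadjusted p under 0.05 in the edgeR test. Their median log2 fold change was 0.17, with Abi1 at 0.29 ± 0.18, Brk1 at 0.26 ± 0.20 and Cyfip1 at -0.24 ± 0.32 (SE). Among 9 shedding and gamma-secretase proteases, 0 passed and 0 had an unadjusted p under 0.05 in that test, with Ncstn at -0.30 ± 0.15, Aph1a at -0.26 ± 0.23 and Adam10, the sheddase of several cadherins, at 0.16 ± 0.20. Among 7 genes of the synaptic turnover pathway linked to Pcdh10, 0 passed and 0 had an unadjusted p under 0.05, with Fmr1 at 0.29 ± 0.23, Mef2a at -0.22 ± 0.17 and Ube3a at 0.22 ± 0.12.

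Among 15 reported binding partners 0 passed over all genes in the edgeR test, and at an unadjusted p under 0.05 there were 2 higher and 1 lower, beside 3.4% higher and 3.7% lower of all tested genes. Gabra2, a GABA-A receptor subunit, averaged 98.3 ± 19.5 CPM over controls and 155 ± 31.4 over mutants (SD, n = 4 each), and every mutant lay above every control (log2 fold change 0.65 ± 0.18, edgeR Benjamini-Hochberg adjusted p = 0.297). Dab1, the Reelin adaptor, averaged 39.9 ± 5.48 CPM over controls and 58.1 ± 3.10 over mutants (SD, n = 4 each), also without overlap (0.54 ± 0.17, edgeR Benjamini-Hochberg adjusted p = 0.405). Over all tested genes, 2.58% were higher without overlap. Cdh11 of the same list, named here after its value was seen, was lower without overlap, beside 2.48% of all tested genes. It was at 8.18 to 15.6 CPM in controls and 6.27 to 7.95 in mutants (edgeR Benjamini-Hochberg adjusted p = 0.876). Fzd7, a Wnt receptor named here after its value was seen, was at 2.50, 0.181, 2.41 and 2.86 CPM in controls a to d and at most 0.376 CPM in the mutants. Control b lay within the range of the mutants. Cdh2, the N-cadherin that associates with Pcdh8 and Pcdh19, had a log2 fold change of -0.25 ± 0.14 (SE).

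Among markers of other retinal cells, some sums were higher in the mutants without overlap, while single genes went in both directions. Summed markers did not overlap between genotypes for amacrine cells (9 genes, 262 to 289 CPM in controls, 310 to 336 in mutants), horizontal cells (5 genes, 17.9 to 27.8 and 33.4 to 43.7) and Müller glia with progenitors (11 genes, 315 to 444 and 451 to 731). Taken singly, 5.06% of all tested genes did not overlap in either direction, and no such share was computed for sums. Single genes gave much of the sums above. Pax6, which ganglion cells also express, averaged 234 CPM over controls and 279 over mutants, while the amacrine marker Gad2 averaged 18.01 CPM over controls and 8.53 over mutants. The mean log2 CPM of the amacrine list was 2.87 in controls and 2.72 in mutants (exact two-sided permutation p = 0.914, n = 4 each). Calb1 of the horizontal cell list averaged 15.01 CPM over controls and 30.0 over mutants. The mean log2 CPM of the horizontal cell list was 0.11 in controls and 1.29 in mutants (exact two-sided permutation p = 0.257, n = 4 each). Of the 10 tested genes of the Müller list, Clu and Dkk3 passed the threshold and were higher in the mutants, as were 0.086% of all tested genes. The log2 fold change was above 0 in 9 of the 10. Sfrp2 averaged 18.9 CPM over controls and 6.97 over mutants without overlap (edgeR Benjamini-Hochberg adjusted p = 0.314), where 2.48% of all tested genes were lower without overlap. Apoe and Hes5 overlapped between genotypes. The mean log2 CPM of that list was 3.33 in controls and 4.31 in mutants (exact two-sided permutation p = 0.229, n = 4 each). Of the horizontal cell list Lhx1 was at 0 in all animals, and 4 amacrine, 3 horizontal and 3 Müller markers were at 0 in at least 1 animal. Bipolar markers (7 genes) summed to 54.0 to 91.7 CPM in controls and 55.1 to 262 in mutants, with overlap. With the photoreceptor or the Müller list mean as a covariate, the log2 fold change of Pcdh19 was -1.76 ± 0.23 and -1.79 ± 0.22 (SE; edgeR Benjamini-Hochberg adjusted p = 0.00773 and 0.00506).

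**Figure D5:**
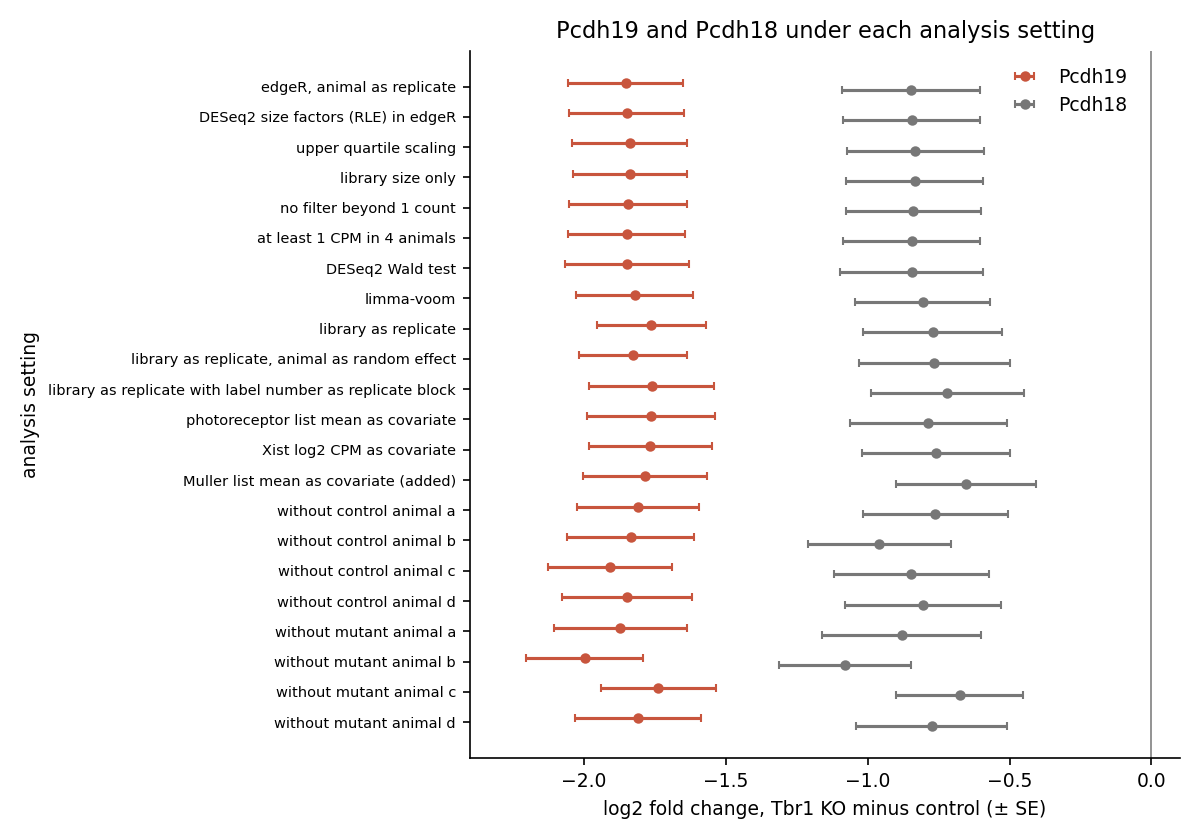
Log2 fold change ± SE, Tbr1 KO minus control (x axis), of Pcdh19 (red) and Pcdh18 (grey) in the edgeR fit and under 21 other analysis settings (y axis). Pcdh19 stays between -1.997 and -1.74 and Pcdh18 between -1.08 and -0.65.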

How the data were processed

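Libraries were made from 11 sorted pools with Smart-seq2 and Nextera XT, per the labels' protocols. The authors deposited unnormalised read counts for each gene symbol. The submitters' processing notes name Trimmomatic 0.32, TopHat2 2.0.10, HTSeq 0.6.1 and mm10 (GRCm38). What each tool did, and the annotation and strandedness of counting, were not given in the sources used here. Reads in no feature were 20.0% to 24.8% of each library and stayed out of library sizes and tests. Counts were summed per animal, filtered with filterByExpr and TMM-scaled. The test was edgeR's quasi-likelihood test with robust fitting (version 4.0.16, R 4.3.3; 4 against 4 animals, Benjamini-Hochberg adjustment over 13957 genes, threshold 0.05). The SE is the log2 fold change over the root of F. List log2 CPM used a prior count of 0.5. Library-level CPM were scaled over the 11 libraries. Lengths and positions came from GENCODE M21 (GRCm38), upstream windows from RefSeq (GRCm38.p6). All 10 members matched M21 and 8 had a window. The script was tested on simulated counts. Alternatives used limma 3.58.1 and DESeq2 1.42.0, and plots matplotlib 3.10.9. The members and lists were chosen with earlier results of these data known. From each other list up to 3 genes are named: those past the threshold, then those with the largest absolute log2 fold change at a mean of at least 16 CPM. The 5 genes most like Pcdh19 leave out predicted genes.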

Additional observations from a re-analysis of the deposited data

Results flagged for a closer look

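Among the 20 sets of 4 animals (10 members, 2 genotypes), 2 held an animal far from the other 3 for the spread of its set, where chance marks about 1 set in 20. Pcdh8 was at 34.9 CPM in mutant d, and the other mutants were at 76.5 to 83.1 CPM. Pcdh9 was at 99.2 CPM in mutant b, and the other mutants were at 61.4 to 67.5 CPM. Mutant b was sequenced as 2 pools, at 92.4 and 111 CPM of Pcdh9, so both pools of that animal were high. Neither gene passed the test between genotypes.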

How the results depend on the processing

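Pcdh19 kept its direction and its call in all 21 other settings, at log2 fold changes of -1.997 to -1.74 and adjusted p of at most 0.0114. The number of members called stayed at 1 in each of them. Pcdh18 kept its direction without passing in any of the 21, with its lowest adjusted p of 0.0657 from DESeq2 and its highest, 0.778, with the Müller list mean as a covariate, a setting chosen after seeing the data. Over all genes 40 were called, against 156 with DESeq2, 84 with libraries as replicates, 74 with the animal as a random effect, and 17 (without mutant animal b) to 44 (without control animal a) when 1 animal was left out. That count was also 18 when control b, 22 when mutant a and 25 when mutant d was left out, fits with fewer samples. For the other settings the cause was not tested. With the label number as a replicate block it was 43, and Pcdh19 was at -1.76. The deviations of same-numbered libraries correlated at -0.03 to 0.13, the highest for number 5. No pairing by number was evident, and a shared batch was not tested. No value of the replicate block changed a call of a member. Members near 0 turned sign without being called. Pcdh8 was at 0.016 with libraries as replicates, 0.21 with the replicate block, and -0.33 to 0.077 with 1 animal left out. Pcdh17 was at -0.070 with libraries as replicates and -0.25 to 0.51 with 1 animal left out, including -0.075 and -0.13 without control animals c and d. It was at 0.87 with the photoreceptor list mean (unadjusted p 0.018) and at 0.51 with the Müller list mean as a covariate. Pcdh9 kept its sign, at 0.19 to 0.78 with 1 animal left out, and at 0.79 and 0.83 with those covariates. Its unadjusted edgeR p was 0.0064 without control animal a, 0.043 and 0.012 with those covariates, and 0.044 with the replicate block. With the animal as a random effect in limma it was 0.038. Its lowest adjusted p over the 21 settings was 0.396. Pcdh10 was at -0.033 and -0.011 without control animal c or mutant animal d, in a range of -0.033 to 0.17. Pcdh1 and Pcdh20 had the fewest reads, and whether depth limits them was not tested.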
